A study of Mus musculus with 16 samples.

Results

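The genes described here are 10 that mark Sertoli cells or carry their signals in the mouse testis: Sox9, Wt1, Gata4, Amh, Fshr, Kitl, Dhh, Inha, Inhbb and Rhox5. They were chosen by symbol, as genes known for this cell type. No measured value entered the rule, but earlier results of these data were known when they were chosen. Each symbol matched 1 of the 55414 gene IDs in the 4 deposited tables, so 10 of 55414 IDs are covered.

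RNA was sequenced from testes of mice aged 14 (P14) or 16 (P16) days after birth. Their labelled genotypes were of 3 kinds, a control, a Cre control and a conditional knockout of Ythdc2 (cKO). Every mouse, controls included, had received tamoxifen (10 mg per ml), first on P12 and again on P13. There were 2 control, 2 Cre control and 3 cKO libraries at P14, and 2 control, 4 Cre control and 3 cKO libraries at P16. Tamoxifen activates an inducible Cre recombinase. The labels give neither the promoter that drives Cre nor the cells in which it acts, and they describe the genotypes of the control types no further. They do not say whether libraries came from separate animals, so a p-value here measures only the spread between these libraries. Ythdc2 codes for a helicase that recognises m6A in RNA, and the series' title names spermatocytes as the cells of interest.

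Sertoli cells are the somatic cells of the seminiferous tubule that surround and nourish the germ cells. SOX9, WT1 and GATA4 are transcription factors that specify and maintain them. They receive follicle-stimulating hormone from the pituitary and testosterone from Leydig cells, and they signal to germ cells and to neighbouring somatic cells with secreted factors such as KIT ligand, desert hedgehog, anti-Müllerian hormone and inhibin. Around the onset of meiosis in the first germ cells, Sertoli cells stop dividing and mature, and Amh is known to fall during that time.

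Ribosomal RNA was removed with either of 2 kits, which divide the libraries. Controls and cKO libraries 1 and 2 had the Ribo-Zero kit (first kit) at either stage, and 22220565 to 27531529 of their reads fell on genes. Cre controls had the NEBNext kit (second kit), as did cKO library 3 at either stage, and 14494867 to 23200252 reads fell on genes. By the file headers, second-kit libraries were sequenced in other runs than first-kit libraries. A difference between kits can thus not be told apart from a difference between runs, or, among controls, between control types. On the scale of the deposited values, which are reads divided by a factor for library size, Ythdc2 had 2027 and 2262 in P14 controls against 658 and 753 in first-kit cKO. Its P16 values were 2666 and 2609 against 502 and 541, so 19.8% of the control mean was left. All 10 genes passed the filter on low values in all 4 tables. Rhox5 rested on as few as 11 reads in a library, and the other 9 genes on 431 to 7600.

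Levels were compared between genes only per transcript length, as TPM (reads over exon length, scaled to a fixed library total), computed from the recovered reads. In the P16 controls the order ran from Inha at 389.9 ± 5.92 (SD, n = 2) and Inhbb at 129 ± 6.17 (SD, n = 2), the inhibin subunits, over Kitl at 101 ± 4.69 (SD, n = 2). The transcription factors followed, with Gata4 at 73.2 ± 0.0643 (SD, n = 2), Wt1 at 72.9 ± 0.246 (SD, n = 2) and Sox9 at 58.4 ± 5.65 (SD, n = 2). Amh, Dhh, Fshr and Rhox5 came last at 55.9, 44.2, 33.3 and 5.52. Gata4 and Wt1 overlapped between libraries, as did Sox9 and Amh, and the other neighbours in the order did not. At P14 Amh ranked higher, at 103 ± 7.53 (SD, n = 2), between Kitl and Gata4.

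At P16, most of these genes were higher in the cKO testis than in the control testis. In the comparison of 2 control with 2 cKO libraries of the first kit, 8 of the 10 genes were called higher (an adjusted p under 0.05) and 0 lower, where 18.6% of the 17986 genes tested were called higher, 19.9% lower and 38.6% in either direction. The largest differences were in Kitl, Fshr and Dhh, each about 1.4 times the control level. The median log2 difference of the 10 genes was 0.36 and that of all genes tested was 0.00. The 2 genes not called were Amh and Rhox5. The labels name testes and no sorting of cells. Leydig cells also express Gata4, Inha and Kitl, and endothelial cells also express Kitl. More Sertoli cells in a sample, less RNA from germ cells, more RNA of these genes per Sertoli cell and RNA from other cells cannot be told apart.

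The transcription factors differed least among the called genes. Sox9, which drives Sertoli cell fate, had deposited values of 2089.7 and 1846 in controls against 2550.3 and 2109 in cKO. The groups did not overlap, but the lower cKO library lay just above the higher control. The log2 difference was 0.24 (SE 0.080, limma adjusted p 0.0320), and it was no longer called without control library 2 (0.15, adjusted p 0.255) or without cKO library 1 (0.10, adjusted p 0.183). Wt1, a zinc-finger factor that maintains Sertoli identity, stood at 3649 and 3715 against 4398 and 4039. The log2 difference was 0.19 (SE 0.049, limma adjusted p 0.0072), which lost its call without control library 1 (adjusted p 0.0756). Gata4, a factor that activates many Sertoli genes, was at 2313 and 2340.4 in controls and 3040.3 and 2796 in cKO. Its log2 difference was 0.33 (SE 0.051, limma adjusted p 3.38e-04), and both cKO libraries lay well above both controls.

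Fshr, the receptor for follicle-stimulating hormone, held 655 and 627 in P16 controls against 933 and 862 in cKO. The control libraries lay close together and well below both cKO libraries. The mean was 641 ± 19.8 (SD, n = 2) in controls and in cKO 897 ± 50.1 (SD, n = 2), which on the log2 scale is 0.48 (SE 0.069, limma adjusted p 1.59e-04). Gnas, which encodes the stimulatory G protein through which that receptor acts, was called higher, by 0.25 (SE 0.039). Gnas was picked after its value had been seen, and other genes acting after that receptor are not given singly.

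Of the secreted signals, Kitl, Dhh, Inha and Inhbb rose in the same comparison and Amh did not pass the test. Kitl, the ligand that differentiating spermatogonia need, stood at 5009.6 and 4754 in controls against 7375 and 6412 in cKO, and both cKO libraries were higher. Its log2 difference was 0.49 (SE 0.059, limma adjusted p 4.16e-05). Kit, its receptor on those germ cells, went the other way, from 3052 and 3066 in controls to 2658 and 2624 in cKO; on the log2 scale this was -0.21 (SE 0.045, limma adjusted p 0.0025). Dhh, the hedgehog ligand that acts on Leydig and peritubular cells, was at 1602 and 1567 in controls and 2280.5 and 2032 in cKO. Neither pair overlapped the other, and the log2 difference was 0.44 (SE 0.059, limma adjusted p 1.05e-04). Exons of Dhh overlap those of Rhebl1 on the same strand over 546 bases and of Gm49442 on the other strand over 1107 bases in the GENCODE M21 annotation, so the reads assigned to Dhh are uncertain.

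Inhibin joins the alpha subunit, from Inha, to a beta subunit, and restrains pituitary follicle-stimulating hormone. Inha values were 4605 and 4767 in P16 controls and 6765 and 5746 in cKO, with no overlap. The log2 difference was 0.41 (SE 0.063, limma adjusted p 2.57e-04). Inhbb, the beta subunit that also forms activin B, held 4580.4 and 4336 against 6172 and 5495, with no overlap and a log2 value of 0.39 (SE 0.055, limma adjusted p 1.59e-04). Inhba, the other beta subunit, was low, at 74.8 and 94.5 in controls and 106 and 89.1 in cKO, and the groups overlapped (limma adjusted p 0.396).

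Amh, the hormone that removes the Müllerian ducts in the male fetus, was at 788 and 734 in the P16 controls and 875 and 717 in cKO. The cKO libraries lay on either side of both controls. The log2 difference was 0.06 (SE 0.088, limma adjusted p 0.635). Rhox5, an X-linked homeobox gene that responds to androgen in Sertoli cells, stood at 29.1 and 38.8 in controls and 24.3 and 35.2 in cKO. These groups overlapped as well, and the log2 value was -0.19 (SE 0.28, limma adjusted p 0.625).

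The 8 called genes were also the 8 with no overlap between groups, where 34.2% of all genes tested had every cKO library above every control. In 9 of the 10 genes cKO library 1 was above cKO library 2, at P16 as at P14. The share over all genes was not counted, so this may not be particular to these genes. The calls rest on spreads that limma draws, gene by gene, toward a value set by expression level (the trend). With a common value for all genes instead (without the trend), Fshr was the only gene of the 10 called (limma adjusted p 0.0462). The other 7 had adjusted p of 0.0559 to 0.267 with the same differences.

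**Figure D1:**
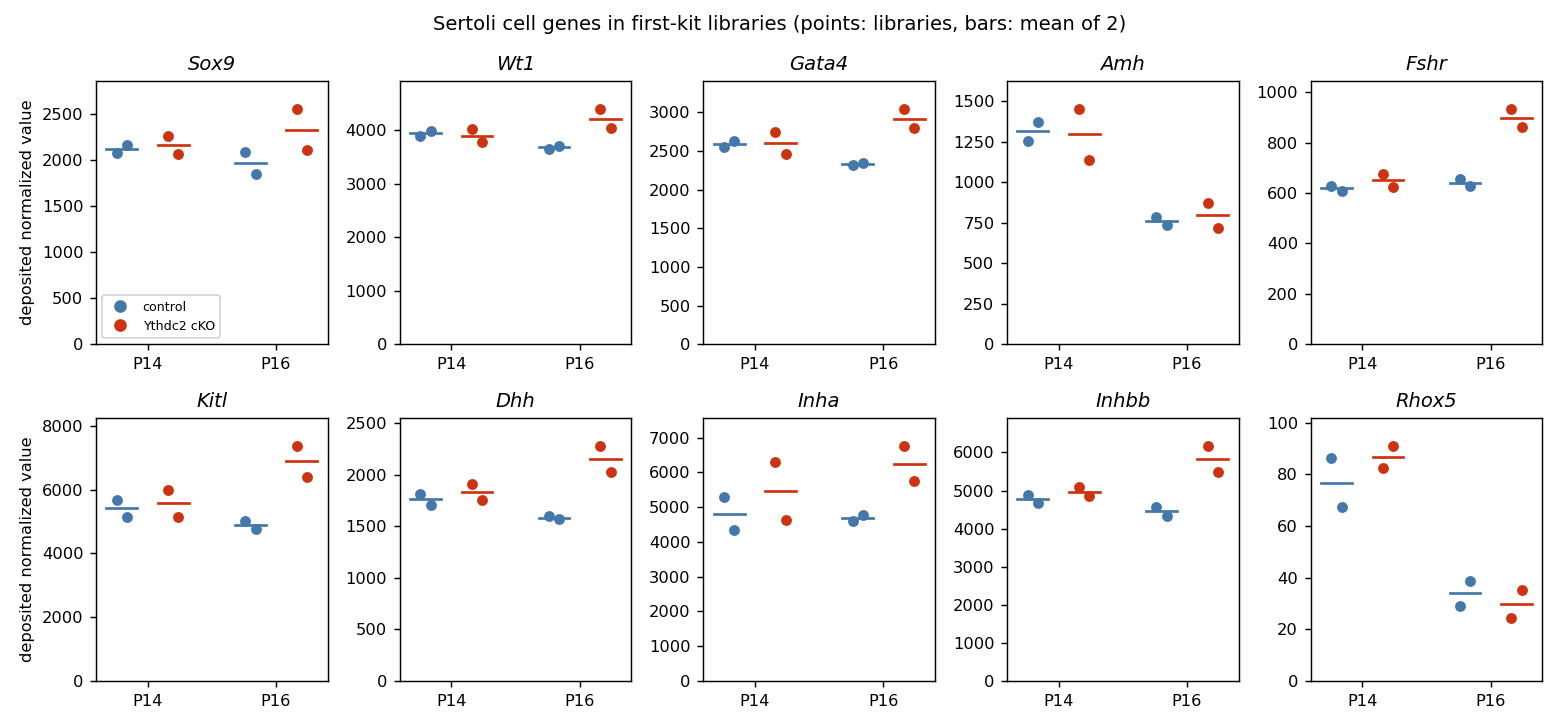
Deposited normalized values (reads divided by a size factor, y axis from 0) of the 10 genes in the first-kit libraries at P14 and P16, with 1 point per library and a bar at the mean of 2. At P16 the cKO points lie above the control points for 8 genes, and for Amh and Rhox5 they overlap, while at P14 the groups overlap for all 10.

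Start regions were looked at where RefSeq gave them. RefSeq (GRCm38.p6) gave windows of 250 bases before the gene start for 6 of the 10 genes, which were Inha, Inhbb, Kitl, Dhh, Fshr and Rhox5. Each window was searched on both strands. The letters for GATA factors were AGATAA, with a second form that starts with another base, which reads TGATAA. For SOX factors they were ACAATG, and a second form differing near the end reads ACAAAG. A half-site of nuclear receptors was written as AGGTCA, and a palindromic form of the E box was written as CACGTG. Other forms of these motifs were not searched. The letters of a TATA box, written as TATAAA, were added after the windows had been read. The windows of Fshr, Kitl and Inha are shown because each holds 1 of these motifs, printed 5′ to 3′ on the gene's strand with the motif in capitals. They lie at chr17:89200676-89200925 (minus strand), chr10:100015571-100015820 (plus strand) and chr1:75507359-75507608 (plus strand).
Fshr: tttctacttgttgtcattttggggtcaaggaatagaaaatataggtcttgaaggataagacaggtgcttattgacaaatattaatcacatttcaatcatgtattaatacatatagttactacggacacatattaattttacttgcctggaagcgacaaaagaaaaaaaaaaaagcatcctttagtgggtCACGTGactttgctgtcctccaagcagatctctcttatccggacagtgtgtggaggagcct
Kitl: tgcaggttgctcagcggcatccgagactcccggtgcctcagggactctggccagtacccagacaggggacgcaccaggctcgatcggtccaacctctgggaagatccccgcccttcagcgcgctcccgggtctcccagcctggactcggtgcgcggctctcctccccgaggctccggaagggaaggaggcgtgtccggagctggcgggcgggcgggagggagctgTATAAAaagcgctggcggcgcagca
Inha: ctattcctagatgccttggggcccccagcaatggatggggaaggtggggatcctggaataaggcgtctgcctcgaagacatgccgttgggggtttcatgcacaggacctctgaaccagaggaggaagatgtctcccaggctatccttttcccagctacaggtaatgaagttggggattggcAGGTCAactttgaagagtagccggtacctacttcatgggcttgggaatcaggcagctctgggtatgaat
In the Fshr window the E box begins 61 bases before the gene start, and 6.02% of 32851 RefSeq windows of this length hold that motif. In the Kitl window the TATA motif begins 25 bases before the start, with a match in 12.4% of all windows. In the Inha window the half-site begins 69 bases before the start, with a match in 14.02% of all windows. The GATA motif was found in 0 of the 6 windows and in 16.6% of all, and the SOX motif in 0 of 6 and 25.2% of all. No motif searched was thus common to these genes, and a match describes letters only.

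At P14, 1 day after the last tamoxifen dose, no difference was detected in any of the 10 genes. None was called by limma, edgeR or DESeq2, and limma called 0.00579% of all genes, in either direction. At an unadjusted p under 0.05 there were 0 of the 10 and 2.37% of all genes. Every library of cKO lay above every control in 15.1% of all genes and below in 14.5%. All 10 had overlapping control and cKO libraries. The 10 log2 differences lay between -0.03 and 0.19, with a median of 0.05, against 0.01 for all genes. Kitl, for instance, stood at 5687 and 5138 in controls and 6007 and 5138 in cKO, and Fshr at 628 and 609 against 677 and 624. Inha varied most between libraries of 1 group, with 5289 and 4334 in controls and 6304 and 4636 in cKO.

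Whether the cKO difference itself changed from P14 to P16 was tested with an interaction term over the 8 first-kit libraries. The effect was larger at P16 in 5 of the 10 genes (Kitl, Fshr, Dhh, Inhbb and Gata4), where 2.9% of all genes moved up, 4.49% down and 7.39% in either direction. Kitl had the largest value, 0.47 on the log2 scale (SE 0.12, limma adjusted p 0.0460), and Fshr followed with 0.43 (SE 0.10, limma adjusted p 0.0364). Wt1, with 0.22, Sox9, with 0.23, and Inha, with 0.25, did not pass the test (adjusted p 0.0880, 0.294 and 0.457). These calls rest on all libraries together. When the trend was left out 0 of the 5 were called. The calls were also lost without any 1 of the 4 control libraries, without cKO P14 library 2 or without cKO P16 library 1. Without cKO P16 library 2 there were 3 calls, and without cKO P14 library 1 there were 7.

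**Figure D2:**
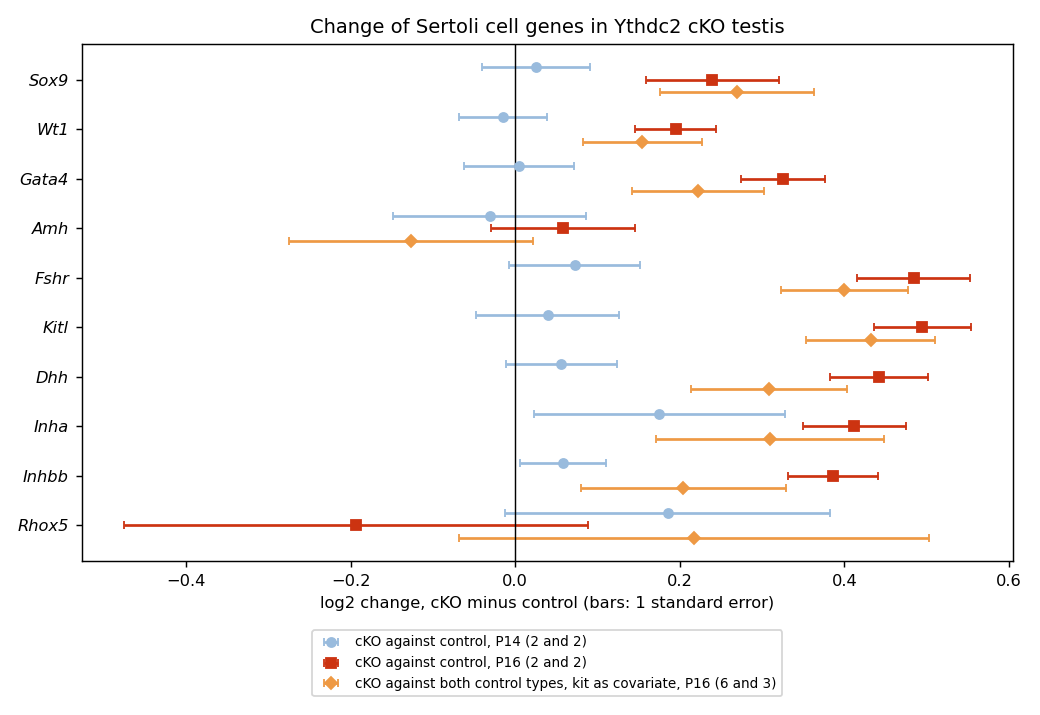
Log2 difference of cKO minus control for each of the 10 genes (x axis, bars of 1 standard error) at P14 and P16 in the first kit and at P16 over both control types with the kit in the model. The P14 values lie near 0, and at P16 Kitl and Fshr are highest in both fits, at 0.49 and 0.48 in the first kit and 0.43 and 0.40 over both control types.

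Kitl and Fshr were higher in cKO also when Cre controls and cKO library 3 were included. Over all 9 P16 libraries, with the kit in the model, 2 of the 10 genes were called higher and 0 lower, where 6.07% of 19932 genes were called higher, 7.49% lower and 13.6% in either direction. Kitl differed by 0.43 (SE 0.079, limma adjusted p 0.0078) and Fshr by 0.40 (SE 0.077, limma adjusted p 0.0096) on the log2 scale. These calls held under every alternative run for that fit, each library left out in turn included. Dhh, at 0.31 (adjusted p 0.0513), Sox9, at 0.27 (adjusted p 0.0773), and Gata4, at 0.22 (adjusted p 0.0863), were not called. Amh had the only negative value, -0.13 (SE 0.15, limma adjusted p 0.603). This fit shares its first-kit libraries with the comparison above. With the sequencing run in place of the kit, 8 genes were called, and without Cre control P16 library 2, 5 were. At P14 limma called 0 of 10 in this fit and 0.00529% of all genes, and at an unadjusted p under 0.05 there were 0 of 10 and 2.46% of all genes.

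The deposited table that sets the 4 Cre controls at P16 beside the 3 cKO libraries mixes the kits, since only the third cKO library was made with the kit of the Cre controls. In it Kitl alone of the 10 was called higher, by 0.69 (SE 0.15, limma adjusted p 0.0413), where 4.3% of all genes were called higher, 4.77% lower and 9.07% in either direction. Its values were 2856, 3266, 2915 and 3355 in the Cre controls, 6041 and 5286 in cKO libraries 1 and 2, which are of the first kit, and 3899 in the third. The 3 cKO libraries all lay above the 4 controls, but the first-kit libraries stood far from the third. The call was lost with the kit in the model (0.34, adjusted p 0.194), and also without cKO library 1, cKO library 2 or any 1 of the Cre controls (adjusted p 0.0779 to 0.191). Every cKO library was above every Cre control for 3 genes, Fshr, Kitl and Rhox5, against 13.2% of all genes, and below for 0, against 16.9%. Sox9 shows the division by kit most plainly, with 3443 to 4375 in the Cre controls, 4803 in the third cKO library and 2089 and 1738 in cKO libraries 1 and 2. For 6 of the 10 genes both first-kit cKO libraries were below the third (45.6% of all genes), and for 1, Kitl, both were above (44.3% of all genes).

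Within the second kit alone there is a single cKO library at P16, so its difference has no replicate check. The third cKO library was above all 4 Cre controls for Sox9, Fshr, Kitl and Rhox5, which is 4 of 10, where 24% of all genes were above. It was within their range for the other 6 and below it for 0, where 30% of all genes were below. Fshr stood at 778 against 667, 670.5, 606 and 628, and Kitl at 3899 against at most 3355. Rhox5 stood at 23.8 against 12.6, 11.4, 19.2 and 14.6, values that rest on 11 to 22 reads. Amh, at 881, lay near the lowest of the Cre controls, which held 859, 1317, 1258 and 1204. Against Cre control library 1, the only P16 control of its own sequencing run, the third cKO library was higher for 10 of 10 genes, where 49.7% of all genes were higher. That control was the lowest of the 4 for 7 of the 10 genes, a count for which the share over all genes was not taken.

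**Figure D3:**
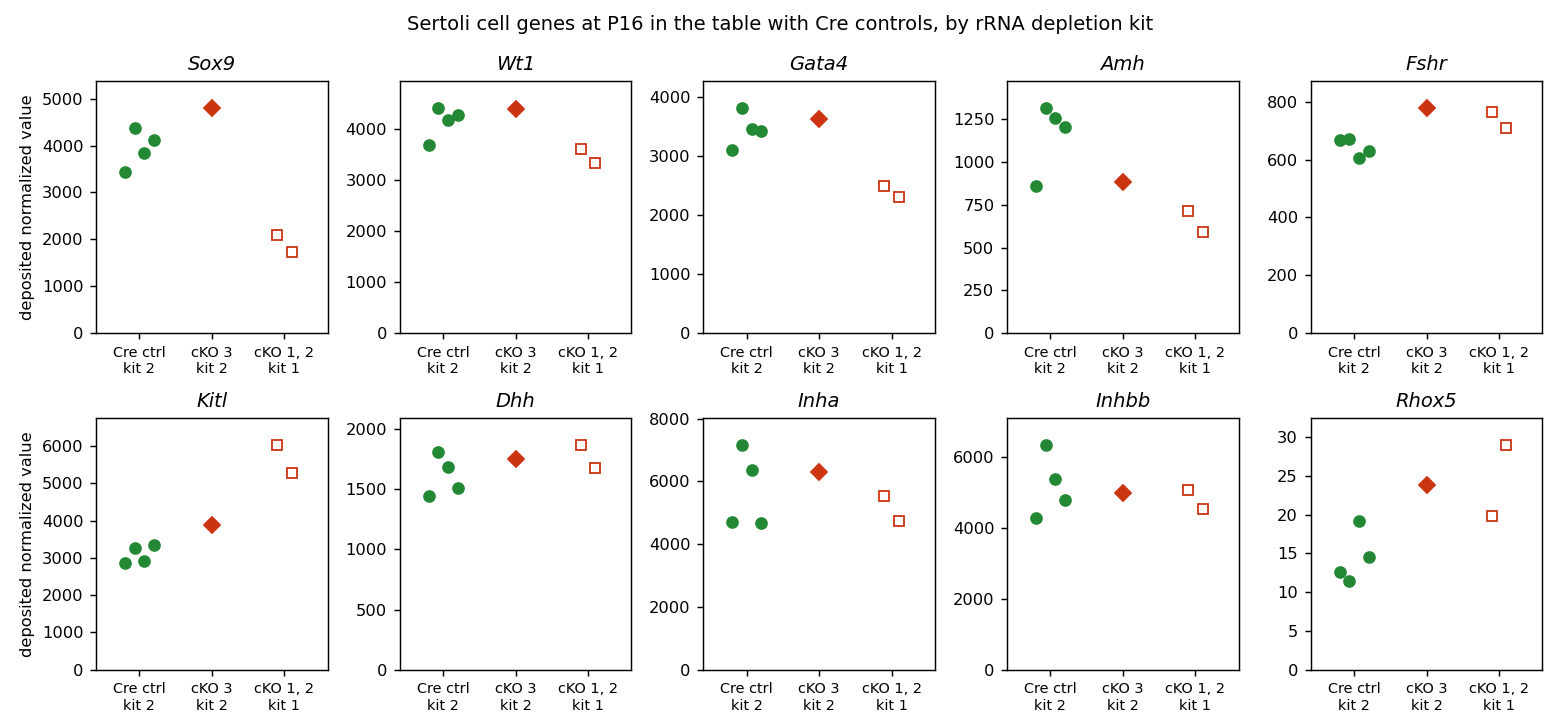
Deposited normalized values (y axis from 0) of the 10 genes in the P16 table with Cre controls, with 1 point per library, split into Cre controls (second kit), cKO library 3 (second kit) and cKO libraries 1 and 2 (first kit). Sox9 and Gata4 in cKO libraries 1 and 2 lie far below every second-kit library, Kitl far above, and the third cKO library is above all 4 Cre controls for Sox9, Fshr, Kitl and Rhox5.

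In the P14 table with Cre controls, 0 of the 10 genes were called by limma and 0% of all genes were, with 1 of the 10, Kitl, and 3.87% of all genes at an unadjusted p under 0.05. edgeR and DESeq2 called 0 of the 10. Kitl was also the only gene with every cKO library above every Cre control (11.7% of all genes, and 14.8% below), with 2268 and 2988 in the Cre controls and 4864, 4181 and 3165 in cKO. The 2 Cre controls differed from each other in some genes and not in others. Inha was at 3001 and 5535, Inhbb at 2741 and 4429.8 and Dhh at 1143 and 1569, whereas Sox9 was at 3684 and 3529.8 and Wt1 at 4241 and 4078. Of the second-kit libraries, cKO 3 was above both for Gata4, Amh and Kitl (26.9% of all genes), below both for Fshr (33.3% of all genes) and between them for 6.

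A ratio within a library removes its scaling, and Wt1 was taken as the denominator after the data had been seen. Per 100 Wt1 reads, the P16 controls held 137 and 128 Kitl reads against 168 and 159 in first-kit cKO. In the second kit the Cre controls held 77.5, 74.1, 69.8 and 78.6 and the third cKO library 89.1, so Kitl was higher relative to Wt1 within each kit. For Fshr the first-kit values were 17.9 and 16.9 against 21.2 and 21.3. The second kit gave 18.1, 15.2, 14.5 and 14.7 against 17.8, where the third cKO library lay inside the Cre control range. Dhh had 43.9 and 42.2 against 51.9 and 50.3 in the first kit, and 39.1, 40.9, 40.4 and 35.3 against 39.9 in the second. Amh had 21.6 and 19.8 against 19.9 and 17.7, and 23.3, 29.9, 30.1 and 28.2 against 20.1. Relative to Wt1, Amh in the third cKO library was thus below all 4 Cre controls, while in the first kit the groups overlapped. Gata4, Inha and Inhbb were also higher in cKO without overlap in the first kit, but within the Cre control range in the second. Sox9 and Rhox5 overlapped in the first kit and were above all 4 Cre controls in the second (Sox9 at 109.7 against 91.9 to 99.3). The second kit has a single cKO library, and the share of all genes that stand apart by this ratio was not counted.

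Between P14 and P16, most of the 10 genes fell in first-kit control testes, while in first-kit cKO testes Amh and Rhox5 fell and Fshr rose. The fall of most genes was not seen in the Cre controls of the second kit, as given below. In controls 6 of the 10 were called lower and 0 higher, where 6.67% of 18581 genes were called lower, 13.3% higher and 20% in either direction. Rhox5 changed by -1.26 on the log2 scale (SE 0.25, limma adjusted p 0.0068) and Amh by -0.90 (SE 0.12, limma adjusted p 7.62e-04). Wt1, Gata4, Dhh and Inhbb had log2 changes of -0.21, -0.26, -0.26 and -0.21 (limma adjusted p 0.0145 to 0.0319). These 4 calls were lost when the trend was left out, and Dhh without any of 3 of the 4 control libraries, Wt1, Gata4 and Inhbb without any of the 4. Rhox5 lost its call without control P14 library 1 (adjusted p 0.0612) or control P16 library 1 (adjusted p 0.0683), and Amh kept it under every alternative run. In reads scaled to library size, each P16 control lay below each P14 control for 9 of the 10 genes (33% of all genes) and above for 0 (31.5%). Other gene lists, described below, moved in this fit too. Of 34 wider Sertoli genes 10 were called lower and 3 higher, and of 32 partners 8 and 1. Called lower were 5 of 6 macrophage, 4 of 6 peritubular myoid and 2 of 5 endothelial markers, with 0 higher. Of 7 Leydig markers 1 was lower and 1 higher, and of 9 spermatogonial markers 2 and 1. Of 10 spermatocyte markers 6 were higher and 0 lower.

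In first-kit cKO, 1 gene was called higher at P16 than at P14, where 16% of all genes were, and 2 lower, where 13.8% were (29.8% in either direction). Libraries of the stages did not overlap for 2 genes that were higher (29.2% of all genes) and 2 that were lower (36.1%). The called higher gene was Fshr, at 37.6 and 36.1 TPM at P14 and 49.4 and 45.8 TPM at P16. Its log2 change was 0.37 (SE 0.072, limma adjusted p 0.0039). In controls Fshr held 34.4 and 33.9 TPM at P14 and 34.3 and 32.4 TPM at P16, which overlap in TPM. In CPM (reads scaled to library size) they did not, at 26.0 and 25.3 against 25.2 and 24.1. Amh changed by -0.79 (SE 0.12, limma adjusted p 0.0010) and Rhox5 by -1.63 (SE 0.25, limma adjusted p 0.0012). These 3 calls held under every alternative run. Kitl in cKO was at 133 and 119 TPM at P14 and 156 and 136 TPM at P16, not called (limma adjusted p 0.0865). In controls it was at 125 and 114 TPM, then 105 and 98.1 TPM, also not called (limma adjusted p 0.0632). The interaction given above is the test of the difference between these changes.

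Amh and Rhox5 were lower at P16 than at P14 in every genotype measured. In Cre controls they were the only called genes of the 10 (2.75% of all genes were called lower, 9.06% higher and 11.8% in either direction). Of the 10 log2 changes there, 6 were positive and 4 negative. Their median was 0.05, against -0.24 in first-kit controls. By the file headers, both P14 Cre controls and P16 library 1 came from the same sequencing run (run B). The other P16 Cre controls came from another run, so stage and run are partly mixed in this comparison. Amh changed by -0.59 (SE 0.16, limma adjusted p 0.0392) and Rhox5 by -1.78 (SE 0.34, limma adjusted p 0.0074). Without Cre control P14 library 1 both calls were lost (adjusted p 0.122 and 0.0994), and that of Amh also without Cre control P14 library 2 or P16 library 3 (adjusted p 0.151 and 0.0632). Stages did not overlap for 3 genes that were lower (18.3% of all genes) and 0 that were higher (19%). Rhox5 reads went from 80 and 62 to 28 and 41 in controls, and from 85 and 103 to 25 and 34 in cKO. In Cre controls they went from 48 and 33 to 11, 11, 22 and 15, so the stages stayed apart in each genotype.

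**Figure D4:**
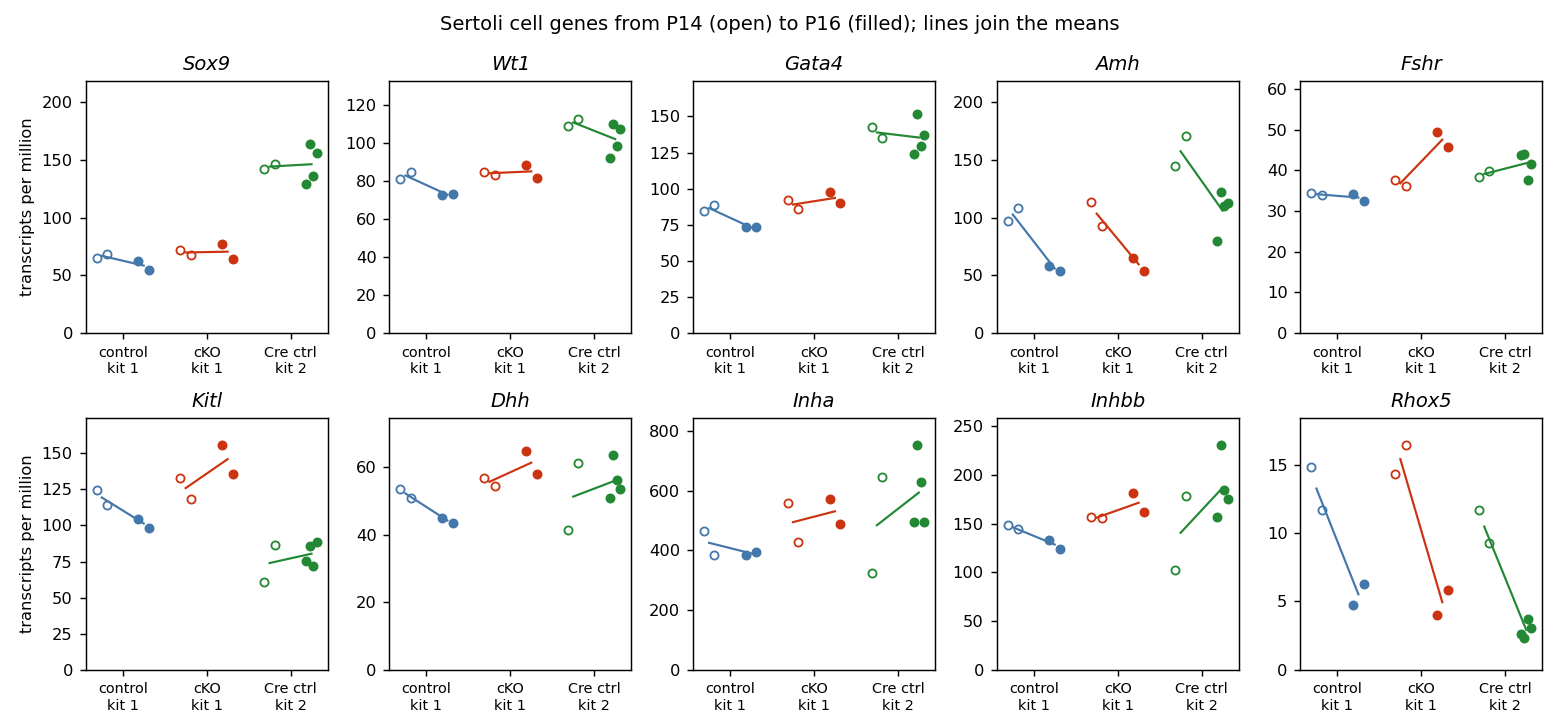
TPM (reads over exon length, scaled to a fixed total, y axis from 0) of the 10 genes at P14 (open points) and P16 (filled points) in first-kit controls, first-kit cKO and second-kit Cre controls, with lines joining the means. Amh and Rhox5 are lower at P16 in all 3 groups, and Fshr in cKO is higher at P16, at 49.4 and 45.8 against 37.6 and 36.1.

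The 10 genes did not share a single pattern over the 8 first-kit libraries. The correlation of each gene's log2 level, in reads scaled to library size, with the mean of the other 9 was 0.968 for Gata4, 0.953 for Dhh, 0.931 for Wt1, 0.924 for Inhbb, 0.900 for Kitl and 0.871 for Sox9. It was 0.770 for Inha, 0.561 for Fshr, 0.449 for Amh and 0.196 for Rhox5. These values are descriptions over 8 libraries that share their depth and groups. Among 13626 other protein-coding genes, those most like the mean of the 10 were Tmie (r 0.992), Ubqln2 (0.989), Mageb18 (0.989), Prdx6 (0.988) and Zc3h7b (0.987). None of these 5 was in the lists used here.

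A wider list of 35 other Sertoli genes was looked at beside the 10. Of the 34 tested at P16 in the first kit, 18 were called higher and 2 lower, with a median log2 difference of 0.24, where 18.6% of all genes were called higher and 19.9% lower. Gdnf, the growth factor for spermatogonial stem cells, rose most, from 168 and 171 to 327 and 284 (log2 0.84, SE 0.11). Cyp26b1, which degrades retinoic acid, and Gja1, the gap junction protein connexin, rose by 0.63 and 0.47. Eppin, a protease inhibitor, fell from 308 and 317 to 186 and 203 (log2 -0.68, SE 0.10). Dmrt1, a factor present in Sertoli cells and in spermatogonia, fell from 4592 and 4602 to 3567 and 3460.3 (log2 -0.39, SE 0.043). Without the trend, 2 genes of the list were called higher and 2 lower. With both control types and the kit in the model, 6 of 34 were called higher, Abca1 (0.50) among them, and 0 lower, where 6.07% of all genes were called higher. That count was 0 without the trend and 15 with the sequencing run in place of the kit. It was 1 to 3 without either control or any 1 of the 3 cKO libraries, and 9 without Cre control library 1. Abca1 is a cholesterol transporter. Gdnf was not called in that fit and did not stand apart in the second kit, at 225 in the third cKO library and 177, 276, 187 and 272 in the Cre controls.

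Receptors, targets and partners of the 10 products moved in both directions. Of 33 listed, 31 were tested at P16, and 14 were called higher and 4 lower with a median of 0.20, beside 18.6% and 19.9% of all genes. Leaving out control library 1 left 9 higher and 2 lower, and leaving out control library 2 left 11 higher and 2 lower. Among hedgehog genes, Hhip, a target that binds the ligand, rose from 239 and 333 to 435 and 504 (log2 0.73, SE 0.13). Ptch1, the receptor and a target, rose by 0.33 (SE 0.072) and Gli1, a target factor, by 0.32 (SE 0.10), while Gli3 changed by -0.25. The co-receptors Boc and Gas1 rose by 0.36 and 0.33. Gli1 lost its call without control library 1, control library 2 or cKO library 2 (adjusted p 0.0621 to 0.171), Gli3 without either control (adjusted p 0.0506 and 0.157) and Ptch1 without control library 1 (adjusted p 0.0516). When the trend was left out 0 of the partners were called higher and 1 lower. In the second kit Ptch1 and Gli1 of the third cKO library lay within the Cre control range. Hhip there was above it, at 367 against 295, 285, 199 and 319.

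Of the activin, inhibin and anti-Müllerian hormone receptors, Tgfbr3, the inhibin co-receptor, rose from 1145 and 1178 to 1652 and 1513 (log2 0.44, SE 0.059). Acvr1, a type I receptor, rose by 0.46 (SE 0.14), a call that was lost without control library 2 (adjusted p 0.0880) or cKO library 1 (adjusted p 0.132). Acvr2b, a type II receptor, fell from 498 and 546 to 305 and 344 (log2 -0.69, SE 0.092). Acvr2a was not called, at 1295 and 1212 against 1416 and 1307. Amhr2, the receptor for anti-Müllerian hormone, overlapped between groups, at 7406 and 6873 against 7647 and 6941, a log2 difference of 0.03 (limma adjusted p 0.686). Over both control types with the kit in the model, 3 partners were called higher (6.07% of all genes), Hhip and Bmpr1a among them, and 1, Acvr2b, lower (7.49% of all genes). Without the trend, without either control library or without cKO library 1 or 2, 0 were called in either direction, and without cKO library 3 there were 0 higher and 1 lower. At P14 limma called none of the wider list or of the partners against control, with 0 of either at an unadjusted p under 0.05. Against Cre control it also called 0, with 1 of each list at an unadjusted p under 0.05.

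Markers of other testis cells were called to different extents at P16, where 18.6% of all genes were called higher, 19.9% lower and 38.6% in either direction. In the first-kit comparison, 4 of 7 tested Leydig genes were called higher (Hsd3b6 by 0.44, Lhcgr by 0.34), 2 of 6 peritubular myoid genes (Myh11 by 0.31, Myl9 by 0.27), 6 of 6 macrophage genes (Cd68 by 0.77, Adgre1 by 0.76) and 2 of 5 endothelial genes (Kdr by 0.32, Cdh5 by 0.27). Of germ cell markers, 6 of 8 tested spermatogonial genes were lower and 1 higher (Stra8 by -1.10, Nanos3 by -0.72), and 7 of 10 spermatocyte genes were lower (Dmc1 by -0.87, Spo11 by -0.42). Without control library 1 the calls of Lhcgr, Kdr, Cdh5 and Spo11 were lost (adjusted p 0.109, 0.241, 0.0550 and 0.0531), and without control library 2 that of Hsd3b6 (0.0557). That of Nanos3 was lost without either control or cKO library 1 (0.0665 to 0.241). Without control library 1 the counts were 2 Leydig, 0 endothelial and 4 spermatocyte genes. When the trend was left out, 4 macrophage, 2 spermatogonial and 1 spermatocyte gene kept a call. Over both control types with the kit in the model, 4 of 6 macrophage genes were called higher and 4 of 10 spermatocyte genes lower. In that fit 6.07% of all genes were called higher and 7.49% lower. Of the Leydig, peritubular myoid, endothelial and spermatogonial genes 0 were called there in either direction. With each library left out in turn, 1 to 5 macrophage genes were higher and 0 to 5 spermatocyte genes lower. No listed marker was at 0 in all libraries.

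Levels were also summed over each list, as CPM (reads scaled to library size). The 10 Sertoli genes summed to 950.1 and 975 CPM in the P16 controls and to 1160 and 1317 CPM in first-kit cKO. Macrophage markers summed to 107 and 111 against 145 and 149 CPM, and Leydig markers to 205 and 214 against 241 and 271 CPM. Peritubular markers had 394 and 425 against 438 and 501 CPM, and endothelial markers 115 and 120.2 against 132 and 137 CPM. The somatic sums were thus higher in cKO, without overlap. Spermatogonial markers had 583 and 592 against 455 and 457 CPM, and spermatocyte markers 3247 and 3366 against 2664 and 2924 CPM, lower in cKO. In the second kit the third cKO library was above the Cre controls for macrophage markers (156 against 107 to 138 CPM) and endothelial markers (158 against 110.4 to 154 CPM). It was below them for spermatocyte markers (1787 against 2041 to 3119 CPM). For the 10 Sertoli genes (1611 against 1267 to 1672 CPM), Leydig, peritubular and spermatogonial markers it lay within their range. The part of these sums in the differences of the Sertoli genes was not tested.

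**Figure D5:**
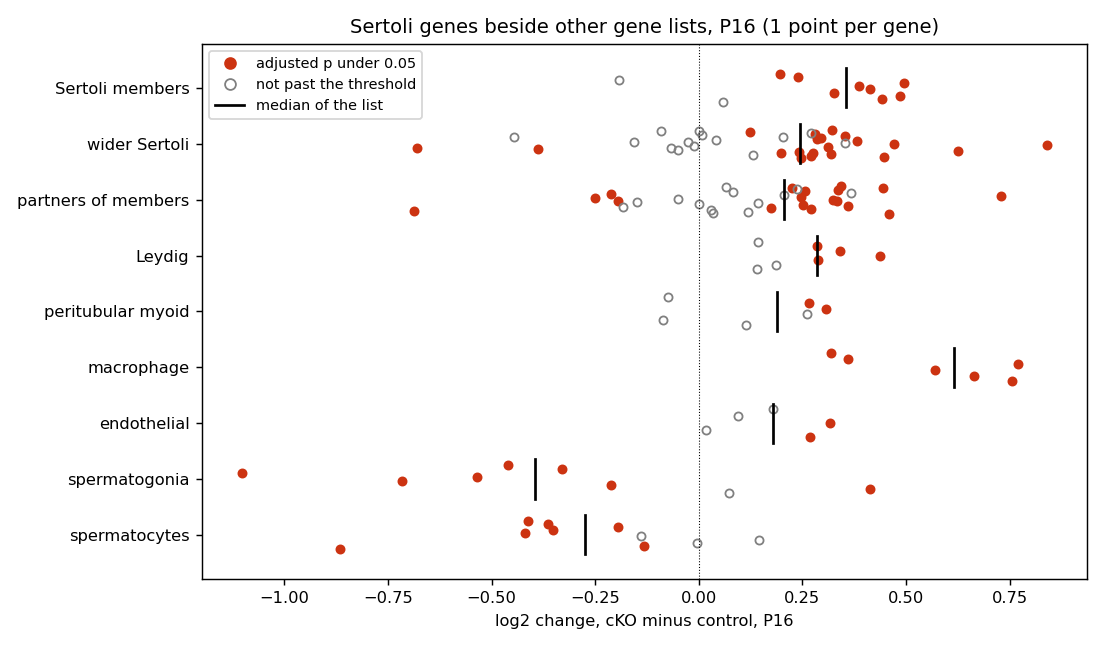
Log2 difference of cKO minus control at P16 in the first kit (x axis), with 1 point per tested gene, filled where the limma adjusted p was under 0.05, and a line at the median of each list. The 10 Sertoli genes have a median of 0.36, the macrophage markers lie highest, and the spermatogonial and spermatocyte lists have medians below 0.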

How the data were processed

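The submitters' processing notes name Trim Galore, STAR, HTSeq and DESeq2 and the build GRCm39 (mm39), with no versions or roles, and the columns are named after STAR's gene count output, per the file headers. Which tool made the counts is not given in the sources used here. The authors deposited a normalized signal (each gene's reads over a size factor of the library) in 4 tables, each of which covers 1 stage and 1 control type and was scaled on its own. In all 20 columns 100% of the values were whole multiples of 1 read (within 0.01 read), so reads were recovered. cKO libraries 1 and 2 of a stage are in both its tables and were counted once. Entries for unmapped, multimapping, ambiguous and unassigned reads held 53.4% to 63.0% of the reads and were left out of library sizes and tests. The strand setting and annotation are not given in the sources used here.

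Gene IDs were named from GENCODE M21 (GRCm38), in which 52081 of 55414 IDs matched, and only 35 carried the same version suffix. M21 exon lengths gave TPM, and the authors' annotation may differ. No coordinates of the deposited genes are given, and promoter windows are those of RefSeq on GRCm38.p6.

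The test within a table was limma 3.58.1 (R 4.3.3, eBayes with trend) on log2(value + 1), keeping genes that reached a value of 10 in 2 or more libraries. Fold changes are on that scale, which understates those of low genes. Fits across tables (both control types with the kit as a covariate, the interaction, P14 to P16) used limma on log2 CPM of the recovered reads (TMM scaling, prior count 1, 10 reads or more in 2 or more libraries). P-values were adjusted by Benjamini-Hochberg over all genes tested, and called means an adjusted p under 0.05. Alternatives were pseudocounts of 0.1 and 10, other filters, TMM or DESeq2 size factors, eBayes without trend, edgeR 4.0.16, DESeq2 1.42.0, a replicate block, covariates for kit or sequencing run, and leaving out each library; run B alone, second-kit values, ratios to Wt1 and the TATA motif were added after seeing the data. The comparison of cKO with control at P16 and the interaction were also run on simulated counts with changes of 2-fold or more. Smaller changes, like those of the 10 genes at P16, and the other fits were not simulated.

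The 10 genes and the lists were chosen with earlier results of these data known. Named are all 10 genes, Ythdc2, the receptors and partners of a gene described, the called genes with the largest change of each list (up to 4 for the Sertoli and partner lists, up to 2 for markers) and the 5 genes most like the mean of the 10. Gnas, Gli3, Boc, Gas1 and Abca1 were named after their values had been seen.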

Additional observations from a re-analysis of the deposited data

Results flagged for a closer look

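Of the 10 Sertoli genes, 5 differed between stages in the cKO effect by the interaction test. The cKO effect at P16 minus that at P14, on the log2 scale, was 0.47 for Kitl, 0.43 for Fshr, 0.40 for Dhh, 0.34 for Inhbb and 0.34 for Gata4. None of these 5 calls held without any 1 of the 4 control libraries, cKO P14 library 2 or cKO P16 library 1. In each gene the groups overlapped at P14 and did not at P16. Ythdc2, the targeted gene, differed as well, by -0.72 (limma adjusted p 0.0082), with a larger loss at P16. No library of the 4 Cre controls at P16 stood apart from the others by Dixon's test in any of the 10 genes. With 4 libraries that test detects only a very large gap, so it does not show that they are alike.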

How the results depend on the processing

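The 8 calls at P16 against control came to 1 without the trend. Against Cre control at P16, Kitl as the call higher became 0 without the trend, with the replicate block or with the kit as covariate, and 2 with DESeq2. A pseudocount of 10 or DESeq2 gave 1 gene lower there. At P14 against Cre control the replicate block gave 1 higher and 4 lower. Over both control types at P16, 2 higher became 4 with a minimum of 50 reads and 8 with the sequencing run. Without the trend the interaction gave 0, and the genes lower at P16 were 2 in control and 1 in Cre control. A minimum of 50 reads or run B alone (added after seeing the data) also gave 1 lower in Cre control.

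Leaving out 1 library at a time gave 0 to 1 higher and 0 to 4 lower against Cre control at P14 and at P16. The 4 lower arose without cKO library 3, which leaves only cKO libraries of the first kit, so that kit and genotype cannot be told apart. The range was 7 to 9 higher against control at P16, 2 to 5 higher over both control types at P16 (5 without Cre control P16 library 2), and 0 to 7 for the interaction (0 in 6 of 8 fits). For P14 to P16 it was 1 to 7 lower in control (1 without control P14 library 1 or control P16 library 1, 7 without either cKO P14 library), 1 to 2 higher in cKO, and 0 to 1 higher and 0 to 2 lower in Cre control. Where a group was left with a single library, that library was assumed to vary like the others. The cause of these shifts was not tested. Over 1296 refits of single Sertoli genes, 1100 kept their side of the threshold or stayed within 1 SD, 85 lost a call, 40 gained one and 71 uncalled values moved by over 1 SD. In 68 the sign changed, none of them in a called value.

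The replicate numbers were not taken to pair libraries. Same-numbered control and cKO libraries had correlated deviations of 0.203 at P14 and 0.0798 at P16, and from -0.233 to 0.304 with Cre controls. With 2 control and 2 cKO libraries, the deviations in a group mirror each other. The 2 same-numbered pairs of a stage thus share 1 value, and the other pairs have its negative. The replicate block left 0 calls at P14 and 8 higher at P16 against control. Rhox5, at 11 to 103 reads per library, is limited by depth.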
